A study of Drosophila melanogaster with 21 samples.

Results

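Slit, its receptors robo1 and robo2, the netrin receptor unc-5 and 6 neuronal adhesion receptors were followed in S2R+ cells depleted of m6A writers or readers. The 10 genes were sli (FBgn0264089), robo1 (FBgn0005631), robo2 or lea (FBgn0002543), unc-5 (FBgn0034013), Dscam1 (FBgn0033159), Nrg (FBgn0264975), Fas3 (FBgn0000636), Ten-m (FBgn0004449), tutl (FBgn0010473) and caps (FBgn0023095). They were picked by their gene IDs as a guidance and adhesion group. No rule on their measured values was used, but earlier results of these data were known when they were chosen. They are 10 of the 17558 gene IDs counted, and all 10 passed the filter on low counts that left 8360 genes for testing. S2R+ is a line grown from Drosophila melanogaster embryos, which the labels call embryonic cells, and every group was the same line. Groups were a control, single depletions of Ime4, CG7818, Fl2d, CG6422 and YT521-B (YT521 below) and a double depletion of Ime4 with CG7818, each with 3 libraries of poly(A) RNA, 21 in all. Ime4 (Mettl3) and CG7818 (Mettl14) form the methyltransferase that puts N6-methyladenosine (m6A) on mRNA, Fl2d belongs to the same writer complex, and CG6422 (Ythdf) and YT521 (Ythdc1) are a cytoplasmic and a nuclear protein that bind m6A. The sources used here do not give the agent used for depletion or for the control, nor the time between depletion and harvest. Nothing states that the 3 libraries of a group came from separate cultures, so p-values measure the spread between libraries, which may be technical.

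Growing axons steer by secreted cues and by contact with neighbouring cells. In the fly nerve cord, midline glia secrete the repellent Slit, and axons carrying Robo receptors keep away from it, while netrins attract through the receptor frazzled (fra) and repel through unc-5. Dscam1, Neuroglian (Nrg), Fasciclin 3 (Fas3), Tenascin major (Ten-m), turtle (tutl) and capricious (caps) sit in the membrane and mediate adhesion, self-recognition or the choice of synaptic partners. Several of them, robo2, unc-5 and Fas3 included, are also used outside the nervous system.

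The labelled depletions were checked on the target genes. Mettl3 stood at 9.35% of its control level in the Ime4 and 8.66% in the double depletion, Mettl14 at 8.98% in the CG7818 and 9.57% in the double depletion, fl(2)d at 17.3%, Ythdf at 25.8% and Ythdc1 at 22.2%, each in its own depletion. Gene counts ranged from 20214568 to 28296393 per library. Fl2d replicate 1 and YT521 replicate 2 stood apart in the share of counts on mt:lrRNA, a mitochondrial ribosomal RNA, at 1.93% and 2.89% against 5.61% to 8.62% in the other libraries, and member calls that changed without both of these libraries are given with the value without them. Of 12 plasmatocyte (blood cell) markers matched, 10 reached 1 CPM (counts-per-million of the scaled library) in the control, among them Pxn at 203 CPM and crq at 216 CPM, while NimC1 stood at 0.0576 CPM. Of 9 neuronal markers matched, only elav, futsch and Rbp9 reached 1 CPM, and the synaptic genes nSyb, Syt1 and brp were at 0.250, 0.333 and 0.0741 CPM. The glial marker repo was at 0.0295 CPM and the midline marker sim at 0.0379 CPM.

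The members are long genes. In the BDGP6.54 annotation their median span was 45.8 kb against 2.63 kb over the genes tested, and 9 of the 10 spanned at least 20 kb, as did 7.64% of tested genes. Ten-m, at 3L from 22293044 to 22407863, spanned 114.8 kb, and Fas3, at 2L from 18320102 to 18393441, spanned 73.34 kb. The shortest was robo1, at 2R from 22692524 to 22700970. The others lie at 2R from 15869495 to 15922118 (sli), 2L from 1380086 to 1420453 (robo2), 2R from 15340472 to 15368300 (unc-5), 2R from 7317924 to 7381899 (Dscam1), X from 8517373 to 8555170 (Nrg), 2L from 4283148 to 4323781 (tutl) and 3L from 13228692 to 13279642 (caps). All values are counts over whole genes, so the many isoforms of Dscam1, with 75 annotated transcripts, are summed. Exons of 4 members share bases with another gene, and reads there may be lost or misassigned. For partners on the opposite strand this depends on whether counting used the strand, which no source used here says. Strand cannot separate lncRNA:CR44898 from robo2 (1241 shared bases) or lncRNA:CR45962 from Ten-m (656), since both lie on the same strand as the member. For robo2 the shared part was 41% of exon bases, with lncRNA:CR44898 and asRNA:CR44897, whose own counts stayed at or below 0.0848 and 0.308 CPM in all 21 libraries. These low counts do not show how many reads of robo2 were lost there. For unc-5, Dscam1 and Ten-m the shared part was 4.34%, 3.85% and 5%.

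Per kilobase of merged exon, unc-5 had the highest mean control level at 12.7 ± 1.1 CPM per kb (SD, n = 3), followed by Ten-m at 11.9 ± 0.43 and robo2 at 10.7 ± 0.92. The ranges of these neighbours in the order overlapped, so they do not differ beyond their spread, and per kilobase of longest transcript Ten-m (12.9) stood above unc-5 (12.7). The level of robo2 is divided by all its exon bases, 41% of them shared with other genes, so it may be too low and its rank is not settled. The midline repellent sli stood at 5.14 ± 0.52 CPM per kb, below robo1 at 8.93 ± 0.16. Next came caps at 4.01 ± 0.12 and Dscam1 at 3.63 ± 0.078, the latter divided by 26.5 kb of merged exons that no single transcript holds; over its longest transcript it came to 10.5. Nrg at 1.03 ± 0.14 and tutl at 0.894 ± 0.018 overlapped, and Fas3 was lowest at 0.307 ± 0.085 CPM per kb. Among the genes tested, 46.5% had a lower level per kb than unc-5 and 5.94% a lower one than Fas3, so the group runs from mid-range to low expression.

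**Figure D1:**
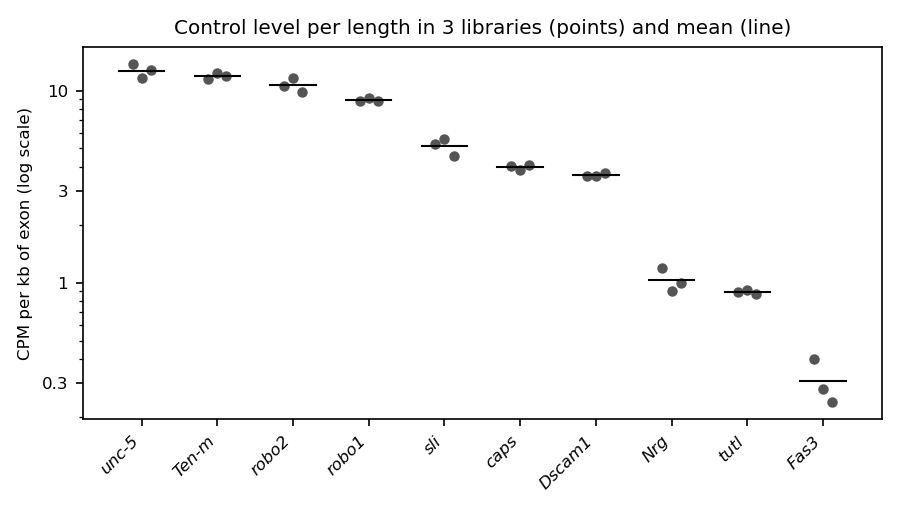
Level of each member in the 3 control libraries, in CPM per kilobase of merged exon on a log axis, with points for libraries and a line for the mean. The order runs from unc-5 at 12.7 to Fas3 at 0.307 CPM per kb.

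The ligand sli was the member that rose furthest. Control libraries held 50.9, 53.5 and 43.9 CPM, and Fl2d libraries 126, 107 and 123 CPM. Every Fl2d library lay above every other library of the series, in which the highest value was 71.5 CPM. The log2 fold change, positive where the depletion is higher, was 1.26 (SE 0.0953, adjusted p = 1.70e-09 by edgeR's quasi-likelihood test). In these bulk samples a change in the number of expressing cells and a change in RNA per cell cannot be told apart, for this gene as for those below.

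Smaller rises of sli passed the test in 3 other depletions. Ime4 libraries held 63.6, 61.9 and 66.3 CPM, CG7818 libraries 67.1, 59.9 and 71.5, and YT521 libraries 58.8, 62.3 and 70.9. All 9 lay above the 3 control libraries, with log2 fold changes of 0.37 (adjusted p = 0.0337), 0.42 (0.0188) and 0.37 (0.0218). These 3 calls were fragile. That in the Ime4 depletion was lost without any 1 of the 3 Ime4 or the 3 control libraries (adjusted p = 0.0506 to 0.159). That in the CG7818 depletion was lost without CG7818 replicate 1 or 3 or control replicate 1 or 3 (0.0546 to 0.115), and that in the YT521 depletion without YT521 replicate 3 (0.0982) or control replicate 3 (0.117). The double depletion, at 55.0, 60.1 and 65.3 CPM, also lay above the control but missed the threshold (log2 0.28, adjusted p = 0.0663, 0.00585 to 0.254 over the alternatives, 0.0474 without both libraries low in mt:lrRNA). CG6422 libraries, at 45.6, 35.6 and 44.4 CPM, overlapped the control range (log2 -0.25, adjusted p = 0.0847).

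**Figure D2:**
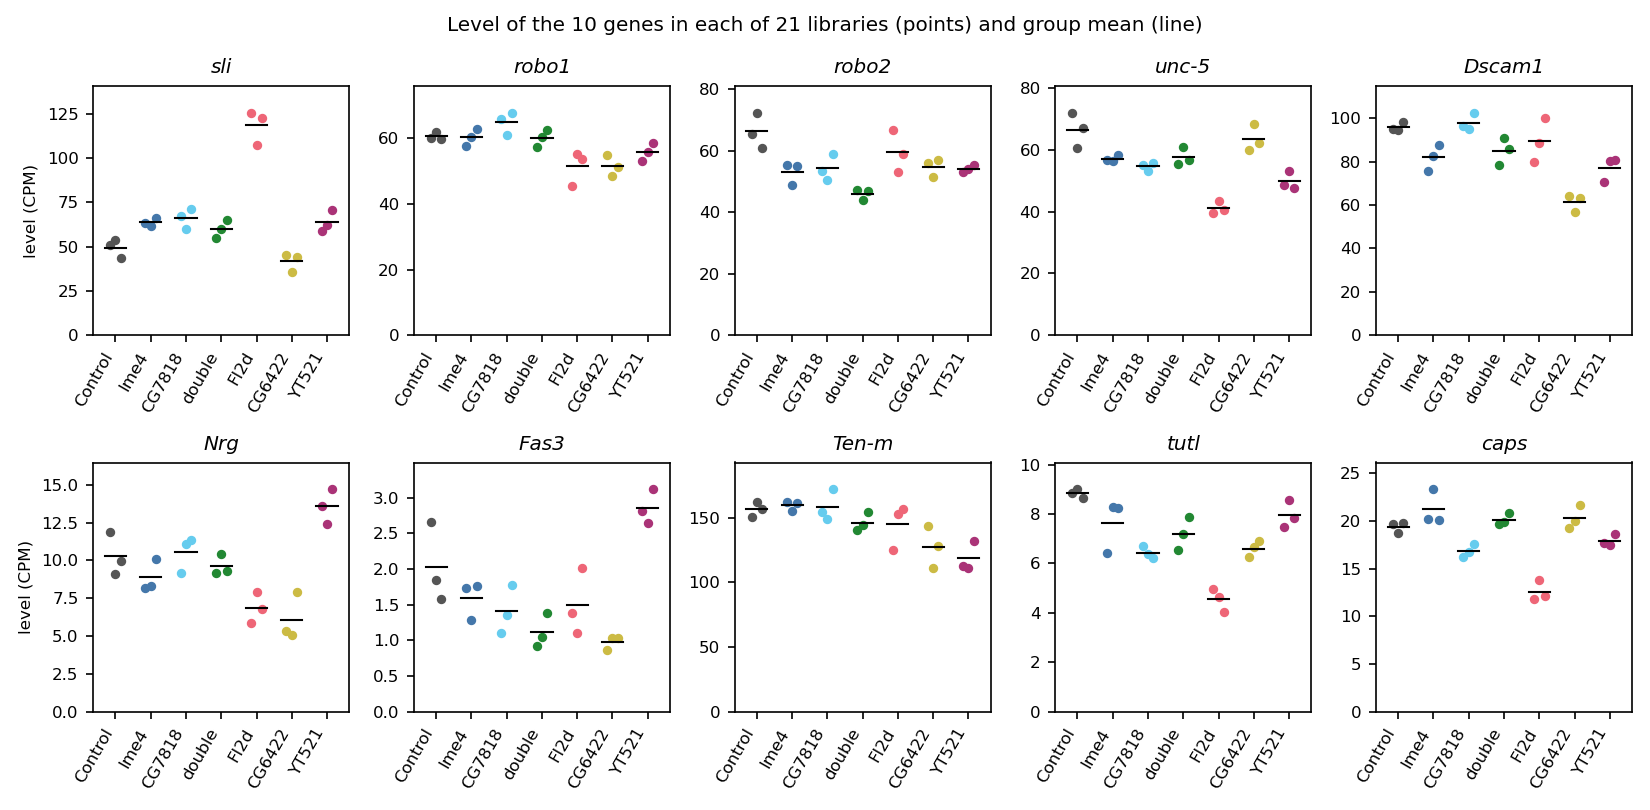
Level of each member in every library, in CPM, by group, with a line for the mean of 3 libraries. In the sli panel the Fl2d libraries lie at 107 to 126 CPM, above all the others, and in the tutl panel they lie at 4.02 to 4.97 CPM, below all the others.

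Of the 2 Slit receptors, robo1 moved least. It stood at 60.2, 61.9 and 59.8 CPM in the control, 45.5, 55.1 and 53.7 CPM in the Fl2d and 54.9, 48.4 and 51.4 CPM in the CG6422 depletion. Both depletions lay below the control without overlap, each with a log2 fold change of -0.24 (adjusted p = 0.00682 and 0.0161). With a trend in exon length taken out the Fl2d change was -0.15 (0.0127). The Fl2d call was lost without Fl2d replicate 1 (adjusted p = 0.0546), the library low in mt:lrRNA. The CG6422 call was lost without CG6422 replicate 2 (0.0965) or control replicate 2 (0.0631). In the 3 depletions of Ime4, CG7818 or both, robo1 ranged from 57.4 to 67.8 CPM and was not called. YT521 libraries, at 53.0 to 58.7 CPM, lay below the control without being called (log2 -0.12, adjusted p = 0.301).

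The second Slit receptor, robo2, which places axons in lateral tracts, was lower in 5 of the 6 depletions. It stood at 65.6, 72.4 and 61.0 CPM in the control and at 47.2, 44.0 and 46.8 CPM in the double depletion, whose libraries were the lowest 3 of the series. There the log2 fold change was -0.53 (SE 0.0785, adjusted p = 1.06e-04), a call kept in all 14 alternatives. The single depletions of Ime4 and CG7818 lay between both groups, with 55.5, 48.7 and 55.0 CPM for Ime4 (log2 -0.32, adjusted p = 0.0211) and 53.4, 50.4 and 58.9 CPM for CG7818 (log2 -0.29, adjusted p = 0.0491). CG6422 libraries at 55.9, 51.4 and 57.1 CPM and YT521 libraries at 53.1, 54.1 and 55.4 CPM gave -0.28 (adjusted p = 0.016) and -0.29 (0.025). None of these 4 groups overlapped the control, yet each call depended on single libraries. It was lost for Ime4 without Ime4 replicate 2 or control replicate 1 or 2 (adjusted p up to 0.154), and for CG7818 without CG7818 replicate 1 or 2 or control replicate 1 or 2 (up to 0.262), and also with DESeq2 size factors (0.051) or a filter at 1 CPM (0.0516). It was lost for CG6422 without CG6422 replicate 2 (0.0884) or control replicate 2 (0.112), and for YT521 without YT521 replicate 1 or 2 or control replicate 1 or 2 (up to 0.173). In the Fl2d depletion robo2 stood at 66.8, 53.0 and 59.0 CPM and overlapped the control. The change there was not called (log2 -0.16, adjusted p = 0.114), but without Fl2d replicate 1 it was (adjusted p = 0.0172), and without both libraries low in mt:lrRNA as well (log2 -0.26, 0.0126).

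The netrin receptor unc-5 fell most in the Fl2d depletion, from 72.0, 60.5 and 67.1 CPM in the control to 39.4, 43.4 and 40.4 CPM. These were the lowest 3 libraries of the series for this gene (log2 -0.69, SE 0.0658, adjusted p = 4.91e-08). The YT521 libraries came next at 48.7, 53.2 and 47.6 CPM, again clear of the control (log2 -0.41, SE 0.0641, adjusted p = 3.45e-04). Both calls were kept in all 14 alternatives. The CG7818 libraries, at 55.0, 53.2 and 55.9 CPM, were lower by a smaller amount (log2 -0.28, adjusted p = 0.0186), a call lost without any 1 of the CG7818 libraries or without control replicate 1 or 3 (adjusted p up to 0.13). The double depletion, at 55.4, 60.9 and 56.7 CPM, overlapped the lowest control library and was only just called (log2 -0.20, adjusted p = 0.0423). That call was lost without double depletion replicate 1 or 3 or control replicate 1 or 3 (up to 0.211). Ime4 libraries at 56.8, 56.5 and 58.2 CPM lay below the control without being called (log2 -0.22, adjusted p = 0.0619). In 5 of the 14 alternatives they were called (down to 0.0254), also without both libraries low in mt:lrRNA (0.026). CG6422 libraries at 59.8, 68.2 and 62.1 CPM overlapped it, and the 95% interval of the log2 fold change ran from -0.20 to 0.07.

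Dscam1, the self-recognition receptor known for its very large set of splice forms, stood at 94.99, 94.8 and 98.4 CPM in the control. CG6422 libraries held 64.1, 56.9 and 63.1 CPM, the lowest of the series. The fall of -0.65 log2 (SE 0.0772, adjusted p = 2.23e-05) was called in all 14 alternatives, though it was -0.36 with a trend in exon length taken out. YT521 libraries held 70.7, 80.1 and 80.8 CPM, below the control as well (log2 -0.31, adjusted p = 0.0144), but the call was lost without YT521 replicate 1 (0.0873) or control replicate 3 (0.0597). Ime4 libraries at 75.8, 82.9 and 87.7 CPM and double depletion libraries at 78.4, 91.1 and 85.9 CPM also lay below the control range, with log2 fold changes of -0.23 (adjusted p = 0.102) and -0.17 (0.152) that were not called. The Ime4 difference was called in 5 of the 14 alternatives (down to 0.0145), also without both libraries low in mt:lrRNA (0.035), and that of the double depletion in 1, with only these 2 groups fitted (0.024). The CG7818 libraries at 96.4, 95.3 and 103 CPM and the Fl2d libraries at 79.7, 88.5 and 100 CPM overlapped the control. Without Fl2d replicate 3 the Fl2d difference was called (adjusted p = 0.0353).

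Ten-m, a teneurin that pairs synaptic partners, was the most abundant member in CPM. Control libraries held 151, 162 and 156 CPM, and YT521 libraries 113, 111 and 132 CPM. The groups did not overlap, and the log2 fold change was -0.40 (SE 0.087, adjusted p = 0.00769). CG6422 libraries at 143, 111 and 128 CPM were also lower (log2 -0.30, adjusted p = 0.0205), but the call was lost without CG6422 replicate 2 (0.14) or 3 (0.0555) or control replicate 2 (0.0825) or 3 (0.0503). In the 4 writer depletions Ten-m ranged from 125 to 172 CPM and was not called in any of them.

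Nrg, the fly relative of the vertebrate adhesion protein L1, stood at 11.9, 9.08 and 9.99 CPM in the control. It was lower in the Fl2d libraries, at 5.83, 7.88 and 6.79 CPM (log2 -0.59, SE 0.149, adjusted p = 0.00343), and in the CG6422 libraries, at 5.30, 5.09 and 7.88 CPM (log2 -0.76, SE 0.15, adjusted p = 0.00168). Neither group overlapped the control, and both calls were kept in all 14 alternatives. The YT521 libraries were the 3 highest of the series at 13.6, 12.4 and 14.7 CPM, above the control range, with a log2 fold change of 0.40 that missed the threshold (adjusted p = 0.0731, 0.00498 to 0.299 over the alternatives, 0.0409 without both libraries low in mt:lrRNA). Nrg was not called in the Ime4, CG7818 or double depletion, where it ranged from 8.20 to 11.4 CPM.

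Fas3, an adhesion protein that binds itself on neighbouring cells, had the least depth behind it, with 18 to 87 counts per library. Control libraries held 2.66, 1.84 and 1.58 CPM, CG6422 libraries 0.860, 1.03 and 1.03 CPM, and double depletion libraries 0.918, 1.05 and 1.38 CPM. Both depletions lay below the control range. The log2 fold change was -1.05 in the CG6422 depletion (SE 0.244, adjusted p = 0.00541, kept in all 14 alternatives) and -0.87 in the double depletion (SE 0.238, adjusted p = 0.02). The latter call was lost without double depletion replicate 1 (0.109) or 2 (0.0753) or control replicate 1 (0.121). YT521 libraries, at 2.82, 2.65 and 3.12 CPM, overlapped only the highest control library (log2 0.50, adjusted p = 0.132). Fl2d libraries at 1.39, 1.11 and 2.01 CPM gave -0.44 (adjusted p = 0.132), called without Fl2d replicate 3 (0.0275).

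The immunoglobulin superfamily protein tutl stood at 8.85, 9.01 and 8.65 CPM in the control. In the Fl2d libraries it was at 4.97, 4.66 and 4.02 CPM, below every other library. This was the deepest of the Fl2d falls among the members (log2 -0.96, SE 0.11, adjusted p = 7.04e-07). CG7818 libraries at 6.70, 6.37 and 6.23 CPM (log2 -0.46, adjusted p = 0.0163) and CG6422 libraries at 6.26, 6.65 and 6.90 CPM (log2 -0.42, adjusted p = 0.0068) were lower as well. The CG7818 call was lost without CG7818 replicate 2 or 3 or control replicate 1 or 2 (adjusted p up to 0.0784). Ime4 libraries (6.43, 8.27 and 8.24 CPM), double depletion libraries (6.55, 7.20 and 7.89 CPM) and YT521 libraries (7.47, 8.55 and 7.82 CPM) all lay below the control without being called. Without both libraries low in mt:lrRNA the double depletion was called (log2 -0.30, adjusted p = 0.0445, against 0.0601 with them).

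Capricious (caps), a leucine-rich repeat protein used in the choice of target layers and muscles, was called against the control in the Fl2d depletion only. It fell from 19.7, 18.7 and 19.8 CPM to 11.8, 13.8 and 12.2 CPM, below every other library (log2 -0.62, SE 0.0747, adjusted p = 1.29e-06). In the other depletions caps ranged from 16.2 to 23.3 CPM. It lay below the control without being called in the CG7818 (16.2 to 17.6 CPM, adjusted p = 0.155) and YT521 depletions (17.51 to 18.66 CPM, 0.39). In the Ime4 depletion it lay above the control, also not called (20.1 to 23.3 CPM, 0.334). The double and CG6422 libraries overlapped the control. Whether the Fl2d change differs from those of the other depletions was tested for the double and the YT521 depletion only, as given below.

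Counted by depletion, most calls were falls, and every rise was of sli. In the Ime4 depletion 1 member rose and 1 fell, where 3.72% of all tested genes were called (1.77% higher and 1.95% lower). In the CG7818 depletion 1 rose and 3 fell, where 2.32% of genes were called (1.10% higher and 1.22% lower). In the double depletion 3 fell and none rose, where 11.4% were called (6.29% higher and 5.13% lower). The Fl2d depletion had 1 higher and 5 lower members, where 41.3% of all genes were called (21.4% higher and 19.9% lower), so a count of 6 among 10 stands against a broad response. In the CG6422 depletion 7 members fell and none rose; 19.1% of all genes were called there, 8.88% as higher and 10.2% as lower. In the YT521 depletion 1 rose and 4 fell, where 6.52% were called (3.27% higher and 3.25% lower). The median log2 fold change of the members was -0.22, -0.09, -0.14, -0.34, -0.29 and -0.14 in this order of depletions. Medians over all genes lay within 0.015 of 0, where library scaling tends to keep them. For all genes with 4 to 8 kb of exon the medians were -0.003, 0.020, -0.035, -0.057, -0.089 and -0.049 in the same order. For those with 8 kb or more they were -0.004, 0.030, -0.069, -0.134, -0.164 and -0.068. The members all fall in these upper length classes. All 6 depletions share the 3 control libraries, so a high or low control library moves all 6 values of a gene together.

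**Figure D3:**
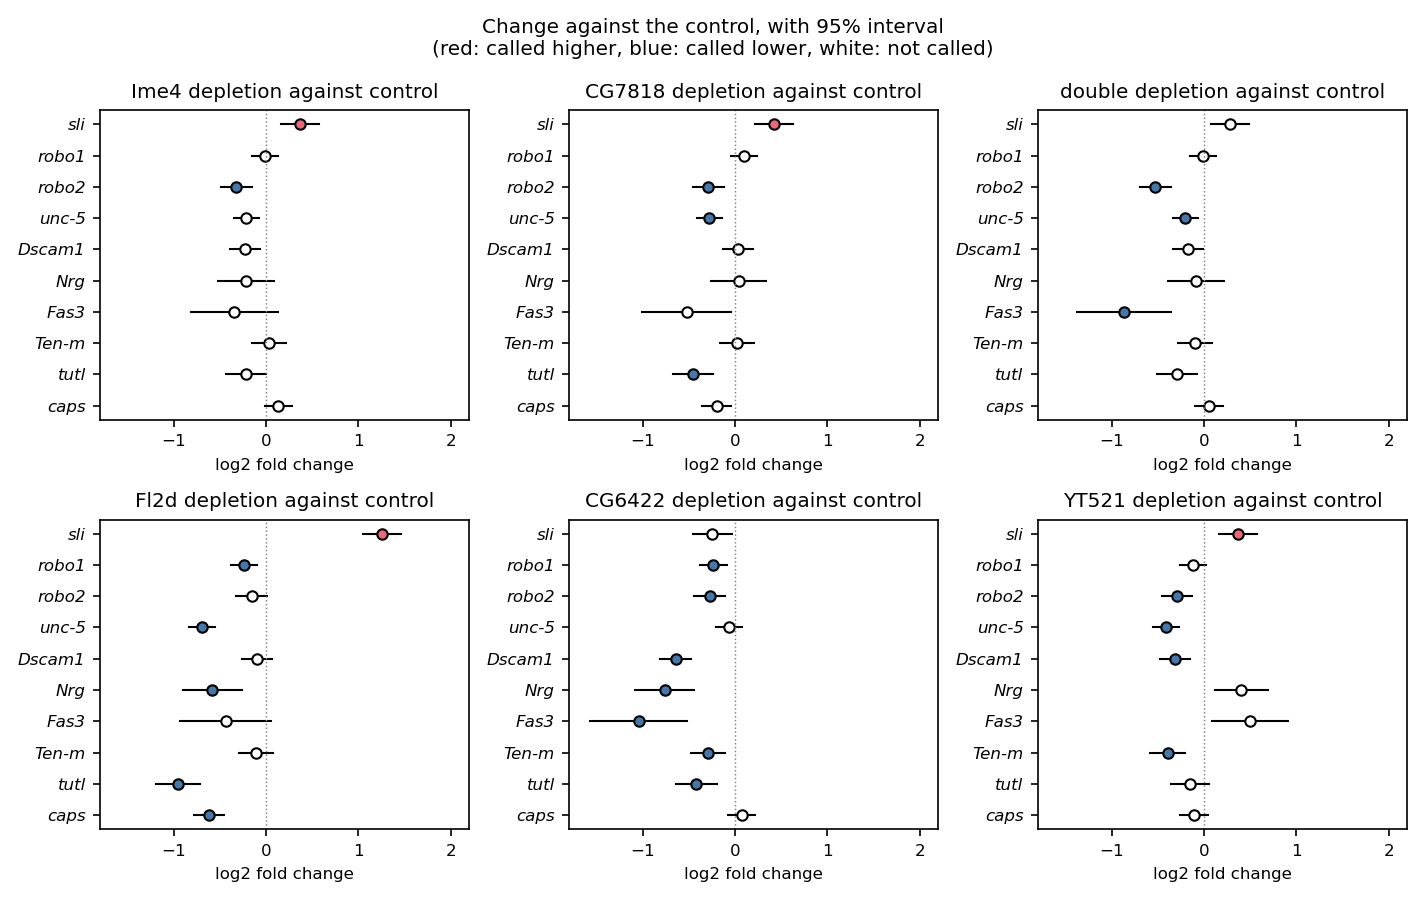
Log2 fold change of each member in each depletion against the control, with 95% intervals, red or blue where it was called higher or lower and white where it was not called. The highest value is that of sli in the Fl2d depletion at 1.26, and the lowest is that of Fas3 in the CG6422 depletion at -1.05.

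In the YT521 depletion 9 of the 10 members did not overlap the control, against 27.0% of all genes, and in the Fl2d depletion 6 of 10, against 45.8%. The counts were 6 against 27.5% in the Ime4, 5 against 22.8% in the CG7818, 5 against 34.8% in the double and 7 against 37.2% in the CG6422 depletion.

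The share of genes that fell rose with exon length in the CG6422 depletion. It went from 1.77% of genes with under 1 kb of exon through 4.30%, 10.4% and 23.8% to 32.0% of those with 8 kb or more, and each of the upper 2 classes holds 5 members. The Fl2d depletion had the same order, from 8.31% to 34.9%, and the YT521 depletion went from 0.736% to 8.06%. Between the shortest and the longest class the share also went from 1.40% to 7.80% in the double depletion. It went from 0.515% to 2.69% in the Ime4 and from 0.589% to 1.88% in the CG7818 depletion. The share called higher also went up between these classes in the CG7818 depletion, from 0.736% to 2.42%, above the share called lower. In the Ime4 depletion it stayed level (1.62% and 1.61%). It went down in the double (8.83% to 2.42%), Fl2d (22.5% to 14.8%), CG6422 (16.3% to 0.806%) and YT521 depletions (5.08% to 2.69%). With a trend in exon length taken out of the counts, 3 of the 7 falls in the CG6422 depletion were kept. These were Dscam1 (log2 -0.36, adjusted p = 4.68e-04), Nrg (-0.58, 0.00666) and Fas3 (-0.92, 0.0128). The falls of robo1 (adjusted p = 0.132), robo2 (0.195), Ten-m (0.233) and tutl (0.15) were no longer called, nor were those of robo2 (0.102) and Dscam1 (0.0777) in the YT521 and of unc-5 (0.124) in the double depletion. What links length to these changes was not tested.

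**Figure D4:**
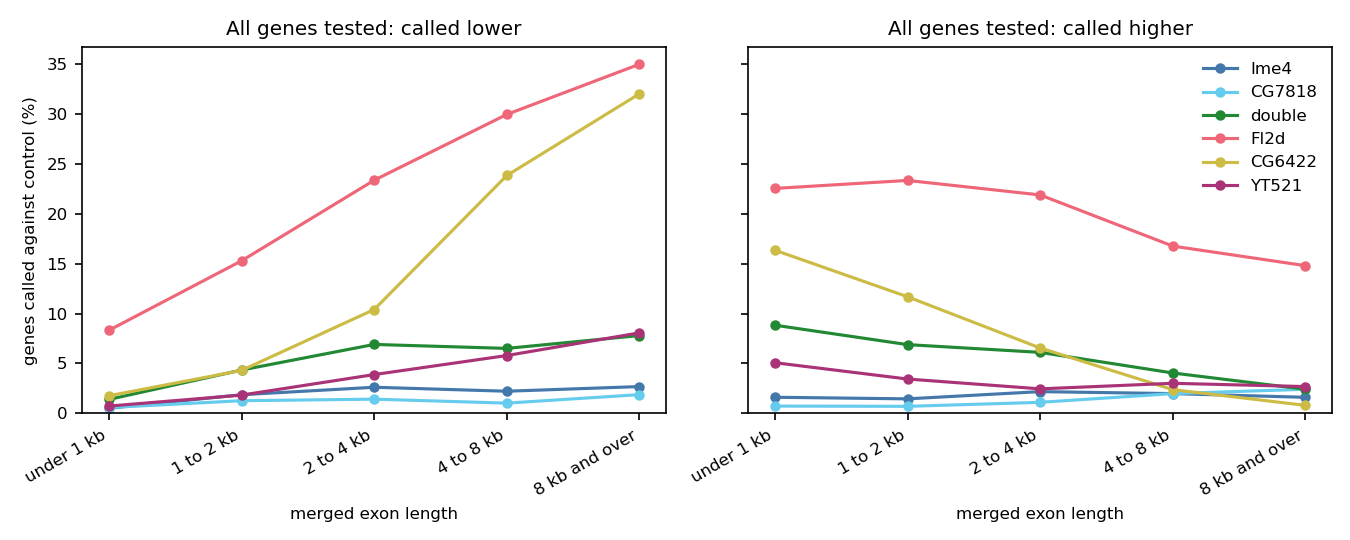
Percent of tested genes called lower (left) and higher (right) than the control, with a line for each depletion, by class of merged exon length (under 1, 1 to 2, 2 to 4, 4 to 8 and at least 8 kb). The members fall in the upper 2 classes, where 23.8% and 32.0% of genes fell in the CG6422 depletion.

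The depletions were also compared with each other. YT521 and CG6422, both m6A readers, differed at 5 members, against 12.9% of all genes. In the YT521 depletion sli (log2 0.62, SE 0.0969, adjusted p = 1.60e-04), Dscam1 (0.33, 0.00597), Nrg (1.17, SE 0.144, 8.98e-06) and Fas3 (1.54, SE 0.226, 7.58e-05) were higher than in the CG6422 depletion, and unc-5 was lower (-0.35, 9.03e-04). All 5 were called in each of the 14 alternatives, with Dscam1 at 0.18 (adjusted p = 0.0418) once the trend in exon length was taken out. That setting called 7 members, with Ten-m (adjusted p = 0.0113) and caps (0.0314) added. Nrg and Fas3 thus had the widest gap between the readers, with 12.4 CPM as the lowest YT521 and 7.88 CPM as the highest CG6422 library for Nrg, and 2.65 against 1.03 CPM for Fas3.

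Fl2d was set against the double depletion of the methyltransferase core, and 7 members differed, against 36.9% of all genes. sli (log2 0.98, adjusted p = 9.25e-08) and robo2 (0.37, 9.41e-04) were higher in the Fl2d depletion, and caps (-0.68, 6.31e-07), tutl (-0.66, 1.25e-04), unc-5 (-0.49, 8.86e-06), Nrg (-0.50, 0.0135) and robo1 (-0.22, 0.0119) were lower. The call of robo1 was lost without Fl2d replicate 1 (0.0901) or double depletion replicate 3 (0.0544), or with only these 2 groups fitted (0.0689). That of Nrg was lost without Fl2d replicate 1 (0.0761) or double depletion replicate 2 (0.056). Without both libraries low in mt:lrRNA, the adjusted p was 0.0715 for robo1 and 0.0633 for Nrg.

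Against the YT521 depletion, 8 members differed in the Fl2d depletion, beside 39.0% of all genes. Higher with Fl2d were sli (log2 0.89, adjusted p = 1.97e-07), Ten-m (0.29, 0.0129) and Dscam1 (0.21, 0.0322), and lower were Nrg (-0.99, 1.40e-05), Fas3 (-0.94, 0.00146), tutl (-0.80, 6.92e-06), caps (-0.51, 1.45e-05) and unc-5 (-0.28, 0.00209). For Ten-m and Dscam1 the libraries of both groups overlapped. The Ten-m call was lost without Fl2d replicate 2 or 3 or YT521 replicate 1 or 2 (adjusted p up to 0.0882), and the Dscam1 call without Fl2d replicate 2 or 3 or YT521 replicate 1 (up to 0.26), and with only these 2 groups fitted both were lost (0.0676 and 0.134).

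Among the writer core depletions, caps was lower with CG7818 than with Ime4 (log2 -0.34, adjusted p = 0.0286, 0.0087 to 0.21 over the alternatives), the 1 member called against 0.502% of all genes. The call was lost without Ime4 replicate 1 or 2 or any 1 of the CG7818 libraries. Without both libraries low in mt:lrRNA, Dscam1 was called as well (log2 0.26, adjusted p = 0.0411, against 0.131 with them). Between the double and the Ime4 depletion edgeR called 0 members, with 2 at an unadjusted p under 0.05 and 0 by DESeq2, against 0.156% of genes. Between the double and the CG7818 depletion edgeR also called 0, with 3 at an unadjusted p under 0.05 and 0 by DESeq2, against 2.17% of genes. With the replicate number as a block, caps was called in this last comparison (log2 0.26, adjusted p = 0.0466, against 0.0643 without the block), as it was without both libraries low in mt:lrRNA (0.0345).

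**Figure D5:**
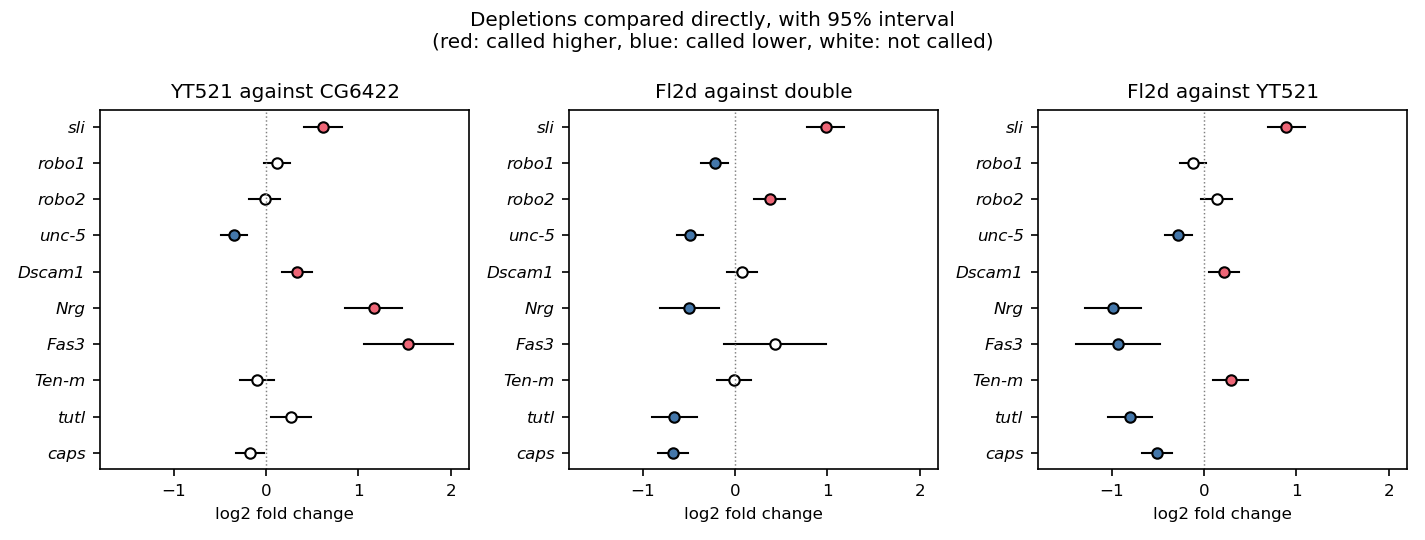
Log2 fold change of each member for YT521 against CG6422, Fl2d against the double depletion and Fl2d against YT521, with 95% intervals, red or blue where called higher or lower and white where not called. Between the readers, Nrg and Fas3 are higher with YT521 depleted than with CG6422 depleted by 1.17 and 1.54, and sli is higher in the Fl2d than in the double depletion by 0.98.

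A wider list of 58 guidance and adhesion genes (netrins, semaphorins, plexins, ephrin and Wnt receptors, cadherins, receptor phosphatases and signalling partners) was read beside the members. Of these 55 were matched and 38 tested. The 17 that were matched but not tested, robo3, NetA and Dscam2 to Dscam4 among them, reached at most 0.402 CPM in any library. In the Fl2d depletion 4 of the 38 rose and 15 fell, 50% beside 41.3% of all genes. In the CG6422 depletion 10 fell and none rose, 26.3% beside 19.1%, and in the YT521 depletion 2 rose and 4 fell, 15.8% beside 6.52%. The double depletion had 1 higher and 2 lower, beside 11.4% of all genes. In the Ime4 and CG7818 depletions edgeR and DESeq2 called 0, with 3 and 7 at an unadjusted p under 0.05, beside 3.72% and 2.32%. The median log2 fold change of the 38 was -0.13 in the Fl2d and -0.11 in the CG6422 depletion.

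In the Fl2d depletion the kinase Abl, which acts downstream of guidance receptors, went from 366 to 489 CPM (log2 0.42, adjusted p = 1.82e-05), and dnt, a relative of the Wnt5 receptor derailed, from 31.1 to 40.4 CPM (0.38, 1.86e-05). The receptor phosphatase Ptp99A fell from 8.61 to 4.76 CPM (-0.86, 2.81e-05). With CG6422 depleted, the glypican dally (44.9 against 30.5 CPM, log2 -0.56, adjusted p = 1.95e-04), the septate junction protein Nrx-IV (29.7 against 20.8 CPM, -0.51, 2.70e-04) and the semaphorin Sema1b (53.4 against 42.5 CPM, -0.34, 0.0058) fell below the control, the last lost without CG6422 replicate 2 (0.0505). In the YT521 depletion dally was higher instead (54.6 CPM, log2 0.28, adjusted p = 0.039), a call lost without YT521 replicate 1 or 3 or control replicate 2 or 3 (up to 0.204). There the turtle relative bdl rose from 2.65 to 4.34 CPM (0.71, 9.03e-04) and the actin regulator ena fell from 279 to 226 CPM (-0.30, 0.00517). In the double depletion dally (36.5 CPM, log2 -0.30, adjusted p = 0.0212), bdl (3.51 CPM, 0.40, 0.0482) and trio, an exchange factor that activates Rac (389 to 347 CPM, -0.17, 0.0427), were called. The call of dally was lost without double depletion replicate 1 or 2 or control replicate 1 or 2 (up to 0.0968). That of bdl was lost without any 1 library of either group (0.0857 to 0.134), and that of trio without any 1 double depletion library or control replicate 1 or 2 (up to 0.199).

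The netrin receptor fra was chosen after its values were seen, because it partners unc-5. It stood at 121, 97.3 and 134 CPM in the control and at 52.5, 84.7 and 73.4 CPM in the Fl2d depletion, without overlap (log2 -0.74, SE 0.12, adjusted p = 5.15e-05). In the YT521 depletion it stood at 85.1, 87.3 and 92.4 CPM (log2 -0.41, adjusted p = 0.0394), a call lost without any 1 of the 3 YT521 libraries or without control replicate 1 or 3 (up to 0.193), or with the length trend taken out (0.0796). Both netrin receptors were thus lower with Fl2d, while NetB stood at 1.01 CPM and NetA at 0.066 CPM in the control.

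Marker sums of the glial, muscle, plasmatocyte and neuronal lists moved beside the member changes in several depletions. The summed glial markers, of which 1 of 5 (moody) reached 1 CPM in the control and repo was near 0, came to 37.2 to 44.3 CPM in the control, 22.3 to 32.9 in the Fl2d, 30.9 to 33.7 in the CG6422 and 30.8 to 34.4 CPM in the YT521 depletion. The summed muscle markers, of which 2 of 5 (how and Mef2) reached 1 CPM, came to 86.0 to 93.0 CPM in the control and to 61.1 to 75.8, 63.4 to 78.8 and 67.0 to 83.6 CPM in these depletions. They were also below the control in the Ime4 (77.4 to 84.3 CPM) and the double depletion (73.1 to 81.7 CPM). The summed plasmatocyte markers, at 653 to 696 CPM in the control, were higher in the Fl2d (728 to 770) and YT521 (710 to 742) and lower in the CG6422 depletion (603 to 645). Single genes weigh on this sum. Over all libraries drpr ranged from 89.4 to 208 CPM (mean 101 in the control), while srp ranged from 71.1 to 98.7 CPM (94.7). Whether the list moved together was not tested. The summed neuronal markers, at 28.8 to 32.6 CPM in the control, were higher in the Ime4 (33.8 to 36.9), double (33.6 to 35.9) and Fl2d depletions (33.7 to 39.2). This sum rests mostly on elav (18.9 CPM in the control), futsch (5.28) and Rbp9 (5.46, and 5.04 to 10.5 over all libraries). Among all single genes, 27.5%, 34.8% and 45.8% did not overlap the control in these depletions. The other sums of these 4 lists overlapped the control, and the midline list rested on sli itself. Their part in the changes of the members was not tested.

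Over the 7 group means of 7509 genes compared, the genes whose pattern was most like that of sli were CG32081 (Pearson r = 0.981), Tnks (0.973) and Dmtn (0.973). For tutl they were CG31674 (0.975), CG5321 (0.975) and sxc (0.975). From the control to the Fl2d depletion, Dmtn went from 81.8 to 107 CPM, CG32081 from 2.90 to 3.69 and Tnks from 50.4 to 54.2, beside 49.4 to 119 CPM for sli. CG5321 went from 3.27 to 0.630 CPM, CG31674 from 10.7 to 6.33 and sxc from 249 to 172, beside 8.84 to 4.55 CPM for tutl. The correlation takes no account of the size of a change. These correlations describe 7 points that share libraries and were picked as the highest, so they carry no test.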

How the data were processed

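The deposited tables hold raw gene counts, 1 table for each of 21 poly(A) RNA libraries. The submitters' processing notes name CASAVA 1.8.4, STAR 2.4.0h and HTSeq 0.6.1 on BDGP6, and DESeq2 1.6.3, which tests counts and does not make them. The 5 summary lines that name no gene were left out; the ambiguous reads among them came to 0.723% to 0.893%. Groups follow the sample titles, since the genotype field of the double depletion names Ime4 alone. Symbols, coordinates and exon lengths are from Ensembl release 115 (BDGP6.54), which holds 17252 of the 17558 IDs. Genes were filtered with filterByExpr (minimum count 10), scaled with TMM and tested in 1 edgeR 4.0.16 quasi-likelihood fit over all 7 groups (R 4.3.3, 14 residual degrees of freedom, biological coefficient of variation 6.37%), with Benjamini-Hochberg adjustment over 8360 genes and a threshold of 0.05. CPM values use TMM-scaled libraries, and 1 CPM is about 22.1 counts in the median library; replicates differed beyond sampling noise (chi-square per degree of freedom 4.52 to 231). Alternatives were DESeq2 1.42.0, DESeq2 size factors, no filter or a 1 CPM filter, each comparison's libraries only, a replicate block, a length trend, and leaving out libraries. Deviations of libraries with the same number correlated at -0.235 to 0.233. Only for the double against the CG7818 depletion were all 3 correlations over 0.1 (0.109 to 0.192), so the numbers were taken as pairing there. Libraries correlated best with their own number in 6 of 6 cases for that comparison and for the double against Ime4. For CG7818 against Ime4 and YT521 against CG6422 it was 5 of 6. Lowest correlations in the latter 3 were 0.0583, 0.0524 and 0.0969, so pairing there was not settled. The main fit held no block. The members and gene lists were chosen with earlier results of these data known. Named genes are all 10 members, up to 3 called genes of the wider list with the smallest p per depletion, and the 3 genes most like sli and tutl; fra, NetA, NetB and the genes of the wider list named as not tested were added after their values were seen.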

Additional observations from a re-analysis of the deposited data

How the results depend on the processing

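Of 1680 values of the members under the alternatives, 1558 kept their direction and side of the threshold, 80 were no longer past it, 42 were newly past it and 0 changed sign (a sign change of a value not called either way was not counted). Only 48 member results were called in the main fit, each read under 14 alternatives. The 80 losses all come from these, since a result not called could not be lost. With only the 2 groups of a comparison fitted, members called went from 2 to 4 (Ime4), 3 to 6 (double depletion), 1 to 2 (CG7818 against Ime4) and 0 to 3 (double against CG7818), and genes of the wider list from 0 to 2 (Ime4), 0 to 1 (CG7818) and 3 to 6 (double depletion). All genes called went in that setting from 311 to 614 (Ime4), 955 to 1634 (double depletion) and 194 to 244 (CG7818). They also went from 42 to 227 (CG7818 against Ime4) and 181 to 630 (double against CG7818). Without both libraries low in mt:lrRNA, 4 (Ime4), 5 (double depletion), 2 (CG7818 against Ime4) and 1 (double against CG7818) members were called. Of the wider list 1 (Ime4) and 1 (CG7818) were called. All genes called came there to 607, 1296, 223 and 375 in the order of these member counts, and to 340 in the CG7818 depletion. With no filter on low counts, 4 (Ime4), 2 (CG7818 against Ime4) and 1 (double against CG7818) members were called, and 1 (CG7818) and 1 (double depletion) of the wider list. All genes called came to 385 (Ime4), 176 (CG7818 against Ime4), 320 (double against CG7818), 277 (CG7818) and 965 (double depletion). With the length trend removed, members went from 7 to 3 (CG6422) and 0 to 1 (double against CG7818), and the wider list from 10 to 5 (CG6422) and 0 to 1 (CG7818). All genes called went from 1595 to 1177 (CG6422), 181 to 145 (double against CG7818) and 194 to 225 (CG7818). With the replicate block, 1 member was called between the double and the CG7818 depletion and 1 gene of the wider list in the CG7818 depletion. All genes called went from 181 to 258 and from 194 to 233 in these comparisons. The block moved no other count of members or of the wider list by over 1.5 times. Outside the first of these comparisons, pairing by number was either not settled or not seen. Leaving out 1 library gave 0 to 1 members (Ime4), 0 to 2 (CG7818), 1 to 3 (double depletion), 6 to 8 (Fl2d), 4 to 7 (CG6422), 3 to 5 (YT521) and 0 to 1 (CG7818 against Ime4), and 0 to 2 (double depletion), 3 to 9 (CG6422) and 2 to 4 (YT521) genes of the wider list. All genes called ranged there from 135 to 193 (Ime4), 93 to 122 (CG7818), 463 to 753 (double depletion) and 2791 to 3457 (Fl2d). For CG6422 they ranged from 844 to 1423, for YT521 from 243 to 492, and for CG7818 against Ime4 from 16 to 32. The cause of these shifts was not tested. Depth limits Fas3 most, at 18 to 87 counts per library.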
